A study of Mus musculus with 9 samples.

Results

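Tmigd1, the gene for transmembrane and immunoglobulin domain containing 1, was followed as 1 gene of 32593 in the deposited expression table, by the row that carries its symbol. It was chosen with its values in these libraries already known, so its levels are given as a description and carry no test. Kidney RNA came from 9 libraries, 3 in each of 3 groups of mice, and all the mice had received AngII, so no group without AngII enters any comparison. The AngII group carried the floxed allele Tmemfl/fl with no Cre listed. The CDH16KO-AngII group was CDH16 Cre+/Tmemfl/fl. The GRPR-AngII group was CDH16 Cre+/GRPRfl/fl, a floxed gastrin-releasing peptide receptor with the same Cre. The Cre is driven by the promoter of Cdh16, which encodes a tubule-specific cadherin of the kidney, so recombination is placed in tubule cells and not in the whole organ. No group carried the Cre without a floxed allele, or GRPRfl/fl without the Cre. GRPR-AngII and CDH16KO-AngII therefore differ in which gene is floxed, and GRPR-AngII and AngII differ in both the floxed gene and the Cre. The series title names STING and ACSL4, and the labels do not spell out the allele written Tmem. The sources used here do not give age, strain, or the dose and length of the AngII treatment. Nothing in the labels says whether the libraries of a group came from separate animals, so every error below measures the spread between these libraries, which may be technical.

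TMIGD1 is a membrane protein of epithelial cells, with immunoglobulin-like domains outside the cell and a short tail inside. It is known from the proximal tubule of the kidney and from the intestine, where it sits at cell contacts and on microvilli of the brush border and takes part in cell adhesion. Its tail binds PDZ-domain scaffolds of the NHERF family, which tie membrane proteins of the brush border to ezrin and the actin core of each microvillus. The proximal tubule, which reabsorbs most of the filtered sodium, glucose, phosphate and amino acids, runs through segments named S1, S2 and S3.

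The gene (ENSMUSG00000020839) lies on chromosome 11 of GRCm38, from 76902159 to 76916587 on the plus strand. The GENCODE M21 annotation of that build gives it 4 transcripts. The longest, ENSMUST00000102495, has 7 exons and 1427 bases, of which 783 are coding, and ENSMUST00000072633 has the same coding length in 6 exons. No other annotated gene overlaps it. A search of its transcripts against all other transcripts at an identity of at least 95% found a match in 0 other genes, so reads shared with a near-identical copy were not found for this gene. RefSeq lists 2 start sites for Tmigd1 on GRCm38.p6, 11.04 kb apart, and the downstream one coincides with the first base of the gene in the deposited table. The 250 bases before that start (chr11:76901909-76902158, plus strand) are shown because the 3 groups stood apart in the level of this gene. The capitals mark the matches to the motifs searched.

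Tmigd1 promoter: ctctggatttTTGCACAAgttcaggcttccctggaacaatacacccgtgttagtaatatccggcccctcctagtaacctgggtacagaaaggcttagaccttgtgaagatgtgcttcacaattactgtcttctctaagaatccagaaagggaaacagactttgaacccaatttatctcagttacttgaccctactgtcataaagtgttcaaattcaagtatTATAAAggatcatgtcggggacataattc

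The run of capitals nearest the start is TATAAA, the core of a TATA box, at bases 29 to 24 before the start on the plus strand. It was present on either strand in 12.4% of 32851 RefSeq promoters over the same 250 bases. The other run, TTGCACAA, matches TTGCNNAA, a C/EBP pattern, at bases 240 to 233 before the start, and 9.56% of promoters held such a match. The HNF4 pattern CAAAGTCCA (0.384% of promoters) was searched on both strands and was not in this window. The window before the upstream start (chr11:76890870-76891119) held none of these 3 patterns. These are matches of letters within 250 bases and nothing more.

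Depth, as the column total, was between 40731748 and 60449117 counts. Between 11456 and 12276 genes per library had an FPKM (fragments scaled to transcript length and to library depth) of 1 or more. Between 16.1% and 26.4% of a library's counts fell on mitochondria-coded genes. Y-linked Ddx3y was at 3.54 to 5.39 FPKM and Xist at 0.00 to 0.02 FPKM in the 9 libraries, so the libraries did not separate by sex. Sting1 stood at 1.21 ± 0.592 FPKM in the AngII group, 0.643 ± 0.0603 in CDH16KO-AngII and 0.827 ± 0.104 in the GRPR-AngII group (SD, n = 3), and the AngII range of 0.55 to 1.7 FPKM overlapped the others. The labels do not tie the allele written Tmem to Sting1.

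Tmigd1 was among the more abundant transcripts of these kidneys. Its mean over the 9 libraries was 84.2 FPKM, with 452 of 32593 genes above it (1.39%), and its rank within a library ran from 289 to 842. In AngII it had 6960, 7185 and 6191 counts in libraries 1, 2 and 3. After TMM scaling (which corrects library totals for composition) these were 124.0, 135.1 and 141.0 CPM (counts scaled to a common library total). In CDH16KO-AngII it had 4055, 6252 and 3439 counts, or 77.3, 110.4 and 73.2 CPM. Libraries 1 and 3 of that group lay close together, and library 2 stood 1.43-fold above the nearer of them. In GRPR-AngII the counts were 11649, 14187 and 10841, or 234.3, 228.2 and 243.8 CPM. These 3 libraries were the highest of the 9, and their values lay within a narrower band than those of either other group. Exact 95% Clopper-Pearson intervals on these counts had half-widths of 1.65% to 3.36% of the value, and they cover counting error only.

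**Figure D1:**
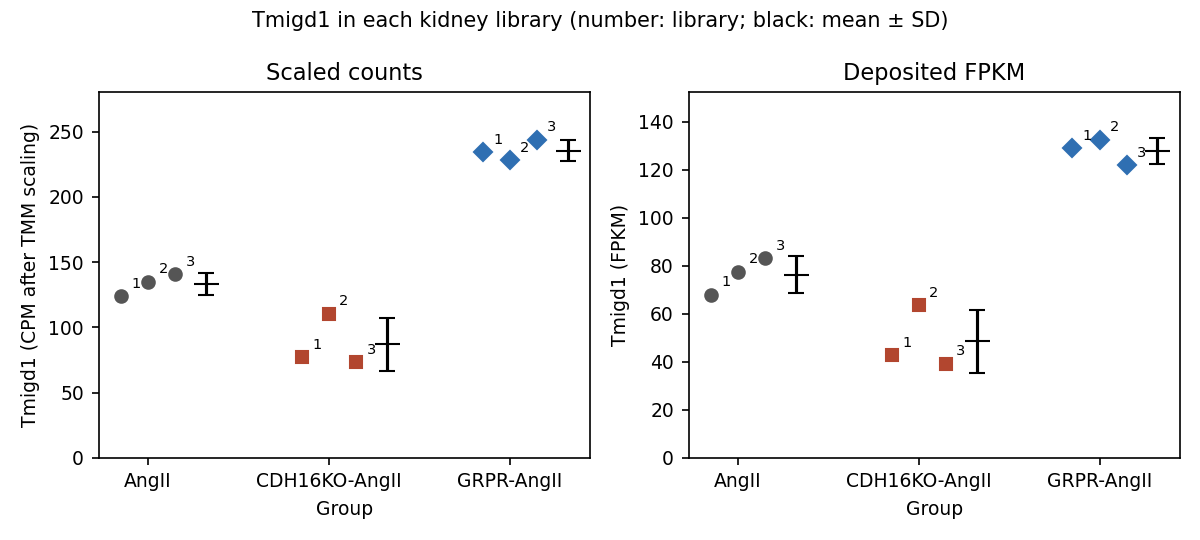
Tmigd1 in each of the 9 kidney libraries, as CPM after TMM scaling (left) and as deposited FPKM (right), with the 3 groups along the horizontal axes. Each point is 1 library with its number, and the black bars are the mean ± SD over 3 libraries. The GRPR-AngII libraries sit at 228 to 244 CPM, above the AngII libraries at 124 to 141 CPM, and the CDH16KO-AngII libraries sit at 73.2 to 110 CPM.

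The group means of Tmigd1 were 133 ± 8.63 CPM in the AngII group, 86.95 ± 20.4 CPM in CDH16KO-AngII and 235 ± 7.86 CPM in the GRPR-AngII group (SD, n = 3). As a share of the mean, the SD was 6.47% for AngII, 23.5% for CDH16KO-AngII and 3.34% for GRPR-AngII. The plot of Tmigd1 by library shows 3 bands with no library of one group inside the band of another. From the lowest to the highest, the order was CDH16KO-AngII 3, 1 and 2, AngII 1, 2 and 3, and GRPR-AngII 2, 1 and 3. The smallest step between groups lay between CDH16KO-AngII library 2 and AngII library 1, at 1.12-fold, which is less than the 1.43-fold step between CDH16KO-AngII libraries 1 and 2. The step from AngII library 3 to GRPR-AngII library 2 was 1.62-fold, the largest of the 8 steps in that order. The lower pair of neighbouring groups was thus set apart by less than the spread inside CDH16KO-AngII, and the upper pair by more than the spread inside any group.

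Deposited FPKM values gave the same bands. Tmigd1 stood at 67.9, 77.52 and 83.15 FPKM in AngII, at 42.9, 63.6 and 39.2 FPKM in CDH16KO-AngII, and at 128.9, 132.4 and 121.8 FPKM in GRPR-AngII. The highest CDH16KO-AngII library was again number 2, and it lay just below the lowest AngII library. The means were 76.2 ± 7.71, 48.6 ± 13.2 and 127.7 ± 5.42 FPKM (SD, n = 3).

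The ratio of means was 1.53 for AngII over CDH16KO-AngII, 1.77 for GRPR-AngII over AngII and 2.71 for GRPR-AngII over CDH16KO-AngII on the CPM scale. Per length, from FPKM, the same ratios were 1.57, 1.68 and 2.63. From the fit of all 9 libraries, the log2 fold change of CDH16KO-AngII against AngII was -0.62 (SE 0.16). GRPR-AngII against AngII was 0.82 (SE 0.17) and GRPR-AngII against CDH16KO-AngII was 1.44 (SE 0.17). The 3 comparisons share groups, so these 3 values are not independent of each other. Of the 12507 genes tested, 5.5% were lower in all CDH16KO-AngII libraries than in all AngII libraries, 6.85% were higher in all GRPR-AngII than in all AngII libraries, and 4.66% were higher in all GRPR-AngII than in all CDH16KO-AngII libraries. All 3 groups stood apart in some order in 74 genes (0.592%), and in the order of Tmigd1 in 16 genes (0.128%), Tmigd1 among them. Tmigd1 was chosen on these values, so nothing is read from its place among those genes.

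The share of mitochondria-coded counts ran opposite to Tmigd1 inside CDH16KO-AngII. It was 23.4%, 16.1% and 26.4% in libraries 1, 2 and 3, lowest where Tmigd1 was highest. In GRPR-AngII, where Tmigd1 varied least, the share was 19.2%, 19.1% and 24.6%, and in AngII it was 21.5%, 17.2% and 17.4%. The mitochondria-coded genes were then taken out of the library totals, and no TMM scaling was applied. These CPM values therefore differ from those above in both respects. Tmigd1 was at 169 ± 14.95 CPM in the AngII group, 110.9 ± 21.9 CPM in CDH16KO-AngII and 290.0 ± 0.306 CPM in the GRPR-AngII group (SD, n = 3). The ratios of means were then 1.52, 1.72 and 2.62 in the order given above, and the groups still did not overlap.

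The spread of Tmigd1 was set beside that of the 200 tested genes nearest to it in mean log2(CPM + 1), 100 above and 100 below. Its within-group SD was 0.19 on the log2 scale, beside a median of 0.20 for these genes (range 0.05 to 1.66), and 109 of the 200 had a larger one. Its range of group means was 1.45, beside a median of 0.27 (range 0.01 to 1.29), and 0 of the 200 had a larger one. Tmigd1 was chosen with its group values known, so nothing is read from its place in this range. The pooled value hides groups that differed: Tmigd1 was tighter than most of the 200 genes in AngII and GRPR-AngII and looser than most in CDH16KO-AngII. By group, its SD was 0.09 for AngII (median of the 200 genes 0.16), 0.32 for CDH16KO-AngII (median 0.22) and 0.05 for GRPR-AngII (median 0.14). A larger SD than that of Tmigd1 was found in 147 of the 200 genes in AngII, in 59 in CDH16KO-AngII and in 186 in GRPR-AngII. All 3 groups were apart in some order in 3 of the 200 (1.5%), beside 0.592% of all tested genes. They were apart in the order of Tmigd1 in 1 (0.5%), beside 0.128%.

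**Figure D2:**
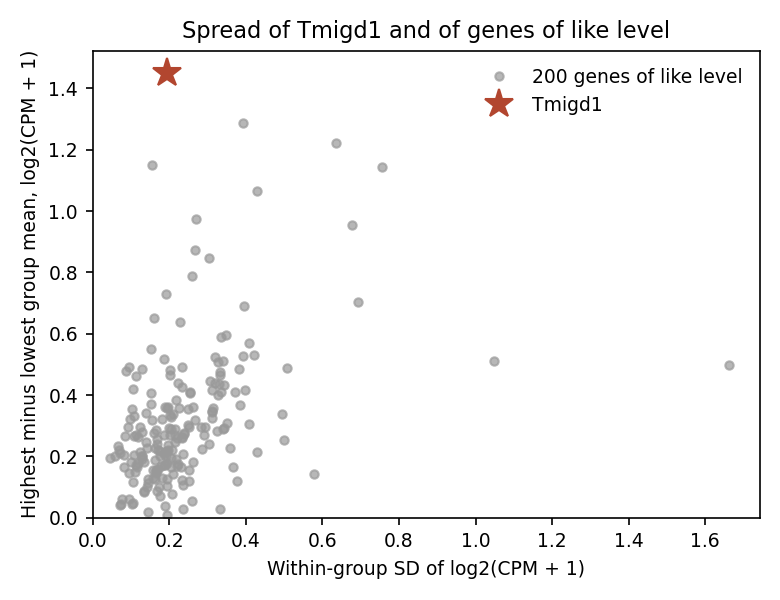
Within-group SD (horizontal) and highest minus lowest group mean (vertical), both of log2(CPM + 1), for Tmigd1 (star) and the 200 tested genes nearest to it in mean level (grey points). Tmigd1 sits at an SD of 0.19 and a range of 1.45, above all 200 points on the vertical axis, whose highest is 1.29. Tmigd1 was chosen with these values known.

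When the 200 genes were taken by mean FPKM instead, 1 of them had a larger range of group means than Tmigd1. In 0 of these 200 did all 3 groups stand apart in any order. The nearest genes per length are described one by one, and unlike Tmigd1 they were picked by mean level only. Just above Tmigd1 stood Gpd1, the cytosolic glycerol-3-phosphate dehydrogenase, at 94.98, 79.9 and 80.0 FPKM in AngII, CDH16KO-AngII and GRPR-AngII. Rps9, a protein of the small ribosomal subunit, was at 84.6, 79.97 and 90.9 FPKM, and Erdr1 at 65.4, 111.6 and 79.9 FPKM. Just below it, G6pc, the glucose-6-phosphatase of gluconeogenesis, was at 81.2, 87.7 and 81.8 FPKM. Pcyt2, an enzyme of phosphatidylethanolamine synthesis, was at 61.9, 94.8 and 93.6 FPKM. Among these 5 genes the range of group means on the log2 scale was 0.07 (G6pc) to 0.68 (Pcyt2), and the within-group SD was 0.15 (Rps9) to 1.05 (Erdr1). Of the 5, only Rps9 had its highest mean in GRPR-AngII and its lowest in CDH16KO-AngII as Tmigd1 did, with a range of 0.21 on the log2 scale.

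Tmigd1 was then read against genes that mark the proximal tubule. These are whole-kidney libraries, so fewer proximal tubule cells and less RNA per cell cannot be told apart. All 16 S1 and S2 markers and all 10 S2 and S3 markers passed the filter (FPKM no lower than 1 in 3 or more libraries). Slc34a1, the sodium-phosphate cotransporter of the brush border, stood at 1037 ± 69.3 FPKM in the AngII group, 704 ± 118 in CDH16KO-AngII and 962.5 ± 42.6 in the GRPR-AngII group (SD, n = 3). Slc5a2, the sodium-glucose cotransporter SGLT2 of the early tubule, stood at 136 ± 16.4, 172 ± 31.99 and 143 ± 10.97 FPKM. The summed FPKM of the S1 and S2 markers was 3001 to 3042 for AngII, 2142 to 3078 for CDH16KO-AngII and 2714 to 2876 for GRPR-AngII. The summed FPKM of the S2 and S3 markers was 1331 to 1478, 1023 to 1987 and 1484 to 1523. Both sums spread most in CDH16KO-AngII, the group in which Tmigd1 also spread most. For the S2 and S3 markers the lowest GRPR-AngII sum, 1484, lay just above the highest AngII sum, 1478, while the CDH16KO-AngII range spanned both. As the mean log2(CPM + 1) of the same markers, GRPR-AngII (7.89 to 8.22) and AngII (7.72 to 7.94) overlapped.

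**Figure D3:**
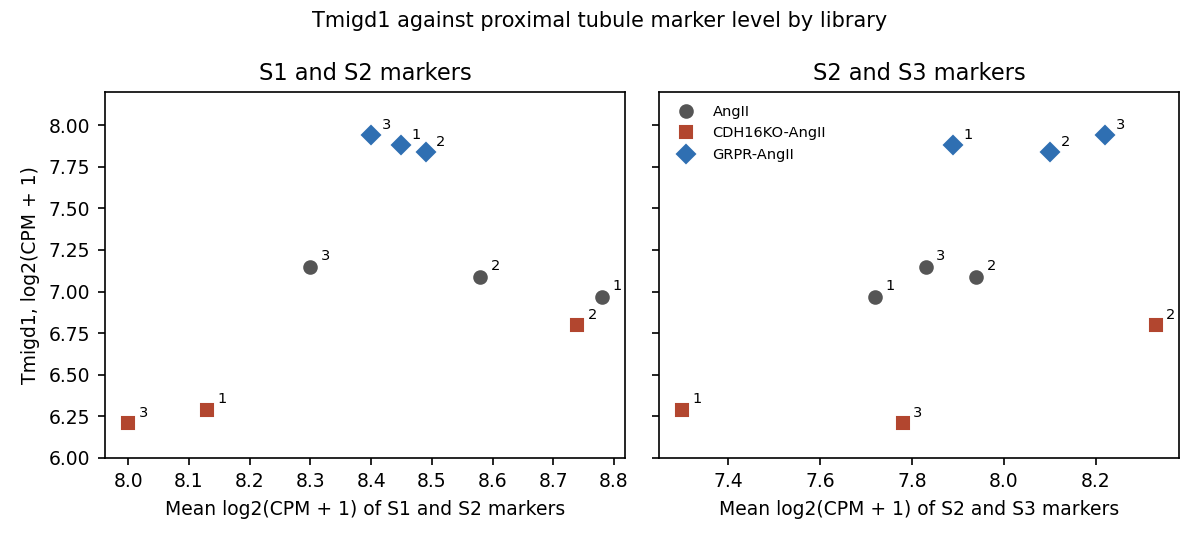
Tmigd1 as log2(CPM + 1) (vertical) against the mean log2(CPM + 1) of 16 S1 and S2 markers (left) and of 10 S2 and S3 markers (right), 1 numbered point per library and 1 colour per group. The GRPR-AngII libraries lie at 7.84 to 7.94 for Tmigd1 with S1 and S2 means of 8.40 to 8.49, inside the range of the AngII libraries, 8.30 to 8.78, and with S2 and S3 means of 7.89 to 8.22, beside 7.72 to 7.94 in AngII.

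The mean log2(CPM + 1) of the S1 and S2 markers was 8.55 ± 0.24 in the AngII group, 8.29 ± 0.40 in CDH16KO-AngII and 8.45 ± 0.05 in the GRPR-AngII group (SD, n = 3). Tmigd1 minus that mean was -1.81, -1.49 and -1.15 in AngII, -1.84, -1.94 and -1.79 in CDH16KO-AngII, and -0.57, -0.65 and -0.47 in GRPR-AngII. The GRPR-AngII libraries stood above the other 6, while AngII library 1 lay between CDH16KO-AngII libraries 1 and 3, so those groups overlapped on this scale. The difference of group means was -0.37 for CDH16KO-AngII against AngII, 0.92 for GRPR-AngII against AngII and 1.29 for GRPR-AngII against CDH16KO-AngII.

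The mean of the S2 and S3 markers was highest in GRPR-AngII, at 8.07 ± 0.17, beside 7.83 ± 0.11 for AngII and 7.80 ± 0.52 for CDH16KO-AngII (SD, n = 3), with overlapping ranges. Tmigd1 minus that mean was -0.76, -0.85 and -0.68 in AngII, -1.01, -1.53 and -1.57 in CDH16KO-AngII, and -0.01, -0.25 and -0.29 in GRPR-AngII. All 3 groups stood apart on this scale, with differences of -0.61, 0.58 and 1.19. In the plot of Tmigd1 against marker level, CDH16KO-AngII library 2 has the highest S2 and S3 mean of all 9 libraries (8.33), while its Tmigd1 level of 6.80 is below every AngII library. Within AngII, library 1 has the highest S1 and S2 mean (8.78) and the lowest Tmigd1 (6.97).

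Gene lists around the known roles of Tmigd1 and the cell types of the kidney were tested in the same fit. Of 146 genes on 11 lists, 144 were in the table and 129 passed the filter. With edgeR's quasi-likelihood test and Benjamini-Hochberg adjustment over all genes tested, 0 of these 129 were called between CDH16KO-AngII and AngII, where 0.168% of all tested genes were called. Between GRPR-AngII and AngII the count was 0, beside 0.0% of all tested genes, and between GRPR-AngII and CDH16KO-AngII it was 0, beside 0.144%. At an unadjusted p under 0.05, edgeR gave 10, 8 and 9 of the 129 (7.75%, 6.20% and 6.98%), where all tested genes gave 8.45%, 6.74% and 6.24%. DESeq2 called 1 (Pvalb), 2 (Slc22a19 among them) and 2 (Slc22a19 among them), named here because they were called, while limma called 0 in each. Groups did not overlap in 12 of the 129 list genes (9.30%) for CDH16KO-AngII against AngII, beside 12.2% of all tested genes. The counts were 19 (14.7%) for GRPR-AngII against AngII, beside 14.1%, and 10 (7.75%) for GRPR-AngII against CDH16KO-AngII, beside 9.96%. In 0 of the 129 did all 3 groups stand apart in the order of Tmigd1, beside 0.128% of all tested genes, a share too small to read from 129 genes. The shares among list genes lay near those of all tested genes.

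The brush border list held the scaffolds and the microvillus proteins among which TMIGD1 works. Of 23 genes, 22 were tested, with median log2 fold changes of -0.08 for CDH16KO-AngII against AngII (9 positive, 13 negative), -0.05 for GRPR-AngII against AngII (7 and 15) and -0.02 for GRPR-AngII against CDH16KO-AngII (10 and 12). The medians of all tested genes were 0.01, -0.01 and -0.01. Slc9a3r1, which encodes the scaffold NHERF1, stood at 129 ± 10.9 FPKM in the AngII group, 105.5 ± 25.8 in CDH16KO-AngII and 110 ± 11.8 in the GRPR-AngII group (SD, n = 3). Pdzk1, a scaffold with PDZ domains, stood at 171 ± 19.6, 141 ± 76.8 and 149.5 ± 29.9 FPKM. Pdzk1ip1, its small membrane partner MAP17, stood at 319 ± 34.2, 336 ± 41.6 and 379 ± 57.0 FPKM. Cdhr5, a protocadherin that links microvilli at their tips, stood at 76.0 ± 6.39, 74.5 ± 7.75 and 70.7 ± 7.65 FPKM. Their log2 fold changes ran from -0.26 to 0.33, beside -0.62 to 1.44 for Tmigd1.

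The immunoglobulin superfamily list held adhesion proteins of the same broad family as TMIGD1. Of 28 genes, 26 were in the table and 24 were tested. Their median was -0.10 for CDH16KO-AngII against AngII (9 positive, 15 negative), -0.14 for GRPR-AngII against AngII (3 and 21) and -0.04 for GRPR-AngII against CDH16KO-AngII (11 and 13). In GRPR-AngII against AngII, where Tmigd1 was 0.82, the highest value of the list was 0.27 (Sirpa, a receptor for CD47). Bsg, which encodes basigin, a partner of lactate transporters, was the most abundant at 202 ± 11.3 FPKM in the AngII group, 195 ± 33.9 in CDH16KO-AngII and 215 ± 28.8 in the GRPR-AngII group. Bcam, a laminin receptor, stood at 40.6 ± 3.04, 41.5 ± 15.03 and 33.5 ± 6.90 FPKM. F11r, the tight junction protein JAM-A, stood at 23.2 ± 1.66, 23.04 ± 2.97 and 19.9 ± 2.80 FPKM. Cadm4, a cell adhesion molecule of the nectin-like group, stood at 21.8 ± 3.67, 21.2 ± 0.747 and 15.7 ± 2.77 FPKM. Tmigd1, at 48.6 to 127.7 FPKM by group, exceeded all of these but Bsg in every group mean.

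The junction and cadherin list had 11 of 13 genes tested, with medians of -0.08, -0.24 and -0.17 in the same order of comparisons. Cdh16, whose promoter drives the Cre, stood at 160.0 ± 14.7 FPKM in the AngII group, 144 ± 13.7 in CDH16KO-AngII and 127 ± 24.8 in the GRPR-AngII group (SD, n = 3). Cldn2, the claudin of the paracellular cation pore of the proximal tubule, stood at 58.2 ± 23.3, 32.7 ± 16.5 and 38.65 ± 14.95 FPKM, with overlapping ranges. Cldn10 stood at 52.6 ± 12.2, 61.3 ± 12.1 and 43.9 ± 11.5 FPKM. Ctnnb1, the β-catenin that links cadherins to actin, stood at 38.5 ± 6.61, 35.7 ± 8.58 and 31.4 ± 8.32 FPKM.

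The list of proximal tubule transcription regulators, to which HNF4A belongs, had 12 of 13 genes tested, with medians of -0.13, -0.16 and -0.06. Hnf4a stood at 83.7 ± 2.19 FPKM in the AngII group, 85.8 ± 15.5 in CDH16KO-AngII and 74.5 ± 6.58 in the GRPR-AngII group (SD, n = 3). Esrra, an orphan nuclear receptor of mitochondrial genes, stood at 26.8 ± 3.94, 33.4 ± 2.61 and 34.5 ± 1.70 FPKM. Nr1h4, the bile acid receptor FXR, stood at 44.3 ± 2.20, 39.35 ± 7.60 and 33.7 ± 9.76 FPKM.

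The S1 and S2 marker list had medians of -0.22 (3 positive, 13 negative), -0.04 (6 and 10) and 0.13 (11 and 5), and the S2 and S3 list had 0.06, 0.13 and 0.12. These medians moved without CDH16KO-AngII library 2: the S1 and S2 median was -0.56 for CDH16KO-AngII against AngII and 0.41 for GRPR-AngII against CDH16KO-AngII, and the S2 and S3 median was 0.61 in the latter. Tmigd1 without that library was -0.83 and 1.65 in the same comparisons. Besides the genes named above, Miox, a proximal tubule oxygenase that breaks down myo-inositol, stood at 1048 ± 131, 937 ± 194 and 988 ± 57.0 FPKM. Slc22a6, the organic anion transporter OAT1, stood at 191 ± 10.4, 146 ± 50.9 and 161 ± 10.99 FPKM. In the S2 and S3 list, Slc27a2, a fatty acid transporter and ligase, stood at 552 ± 13.7, 452 ± 92.1 and 575 ± 68.3 FPKM, and Acy3, an aminoacylase, at 551 ± 57.6, 634 ± 299 and 556 ± 44.8 FPKM. Slc7a13, an acidic amino acid transporter of S3, stood at 104 ± 16.8, 86.97 ± 44.1 and 109 ± 13.9 FPKM, and Atp11a, a phospholipid flippase, at 62.0 ± 2.55, 72.1 ± 19.3 and 50.8 ± 4.85 FPKM.

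**Figure D4:**
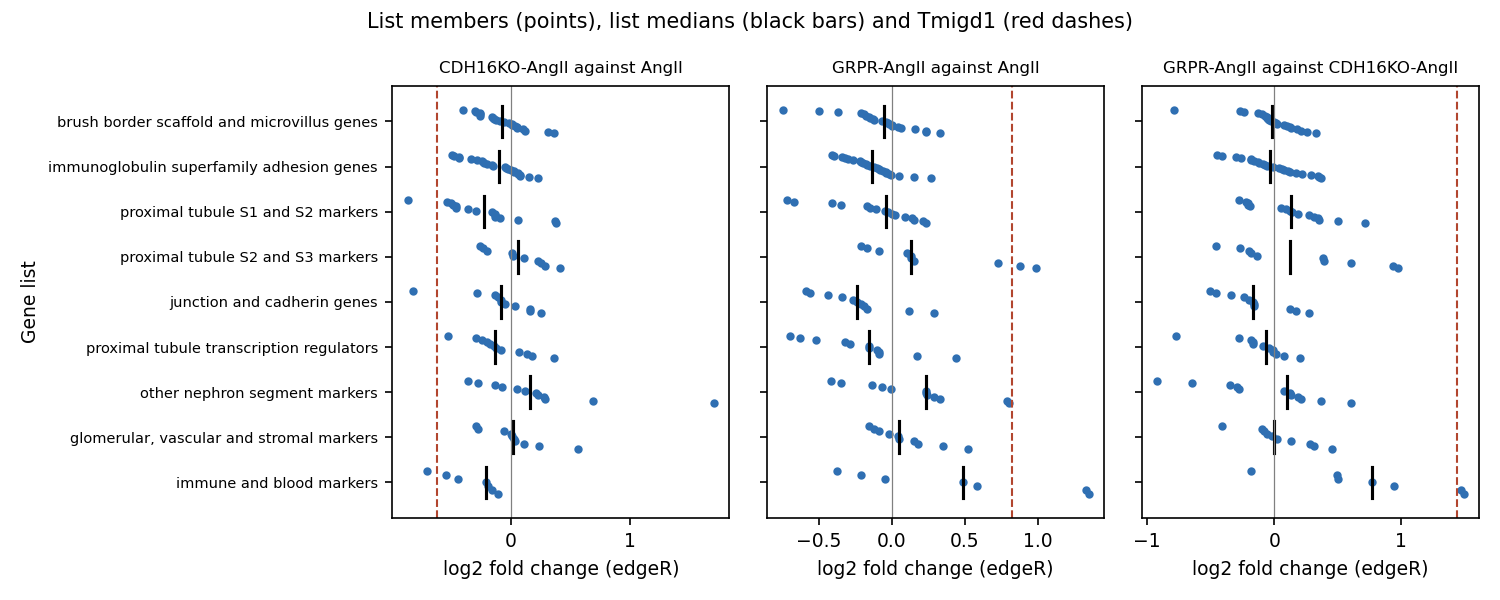
Log2 fold changes from edgeR (horizontal) of the tested members of 9 gene lists (1 line of points per list) in the 3 comparisons (panels), with list medians as black bars and Tmigd1 as a red dashed line. Tmigd1, at -0.62, 0.82 and 1.44, lies farther in its own direction than every member of the brush border and immunoglobulin superfamily lists in each panel. Members of other lists lie farther than Tmigd1. They include Gatm (S1 and S2 list, -0.86) and Cldn2 (-0.82) for CDH16KO-AngII against AngII. For GRPR-AngII against AngII they include Slc22a19 (S2 and S3 list, 0.99) and Cd79a (1.35), and for GRPR-AngII against CDH16KO-AngII S100a8 (1.49).

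Markers of other cells were read for the same libraries. The 12 markers of other nephron segments had medians of 0.17 (8 positive, 4 negative), 0.23 (7 and 5) and 0.10 (7 and 5). Umod of the thick ascending limb went against these medians, at -0.07, -0.35 and -0.28. It stood at 669.5 ± 191 FPKM in the AngII group, 621.5 ± 101 in CDH16KO-AngII and 503 ± 115 in the GRPR-AngII group. In the same order, Slc12a1 stood at 157.4, 178.4 and 112.3 FPKM, Slc12a3 at 62.6, 63.3 and 70.7 FPKM, and Aqp2 at 107.7, 168.2 and 181.9 FPKM. The 10 glomerular, vascular and stromal markers had medians of 0.02, 0.04 and 0.00, and their summed FPKM was 71.6 to 83.8, 74.05 to 88.8 and 68.5 to 82.7. The summed FPKM of the 11 immune and blood markers ran from 100.4 to 847.9 in AngII, from 377.5 to 506.3 in CDH16KO-AngII and from 135.3 to 1279 in GRPR-AngII, and haemoglobin genes made up most of it. Of these 11, 7 passed the filter, and their medians were -0.21, 0.49 and 0.77. Without GRPR-AngII library 2, the median for GRPR-AngII against AngII was -0.05. Of 5 urothelial markers, only Upk3a passed the filter, and their summed FPKM was 0.37 to 5.09 over the 9 libraries. GRPR-AngII, with the narrowest Tmigd1 values, had the widest range of the immune and blood sum, and the part of these markers in the Tmigd1 values was not tested.

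On chromosome 11, the 3 nearest genes on each side of Tmigd1 that passed the filter were read with it. They reached out to 288.8 kb at lower coordinates (Abr) and 376.9 kb at higher coordinates (Gm12346). The nearest gene that passed the same filter was Blmh, the cysteine protease bleomycin hydrolase, 8.22 kb away at higher coordinates. It stood at 5.80 ± 0.630 FPKM in the AngII group, 5.43 ± 1.79 in CDH16KO-AngII and 6.24 ± 1.06 in the GRPR-AngII group (SD, n = 3). Cpd, which encodes carboxypeptidase D, lay 55.1 kb away at lower coordinates and stood at 7.34, 6.51 and 6.05 FPKM. Gosr1, a Golgi SNARE, stood at 5.82, 5.17 and 4.65 FPKM, and Abr at 3.31, 3.55 and 3.90 FPKM. Farther on the other side, Nsrp1 stood at 3.37, 3.17 and 2.98 FPKM and the predicted gene Gm12346 at 2.63, 2.20 and 2.61 FPKM. Their log2 fold changes lay between -0.26 and 0.31 in the 3 comparisons, and edgeR adjusted p was 0.732 or more for each of these 6 genes.

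Genes with the profile most like that of Tmigd1 were ranked over the 9 libraries by the root mean square difference of log2(CPM + 1), each gene centred on its own mean. A gene with no variation would have a difference of 0.614 from Tmigd1, and the median of the 12506 other tested genes was 0.656. Of these, 3857 (30.8%) came closer than 0.614. The 10 nearest were Fgf1 (0.241), Spink1 (0.260), Fam151a (0.269), Ces2e (0.284), Fancc (0.291), Gstp1 (0.297), Nxpe3 (0.298), Slc22a26 (0.299), Apoh (0.300) and Aen (0.301). They were picked for likeness to Tmigd1, so their values are a description.

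Fgf1, the acidic fibroblast growth factor, stood at 133 ± 14.3 CPM in the AngII group, 84.5 ± 7.24 in CDH16KO-AngII and 189 ± 23.1 in the GRPR-AngII group (SD, n = 3). Its values in AngII and CDH16KO-AngII lay close to those of Tmigd1 on the same scale (133 and 86.95 CPM), and its GRPR-AngII mean lay below the 235 CPM of Tmigd1. Spink1, a secreted trypsin inhibitor, was more abundant and more spread, at 263 ± 71.9, 176 ± 76.1 and 375 ± 15.2 CPM. Fam151a stood at 96.4 ± 15.9, 76.8 ± 23.8 and 148 ± 6.36 CPM. Gstp1, a glutathione transferase of the pi class, stood at 258 ± 52.1, 181 ± 41.6 and 317 ± 22.7 CPM. Like Tmigd1, for likeness to which they were picked, Fgf1, Spink1, Fam151a and Gstp1 were highest in library 2 within CDH16KO-AngII.

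**Figure D5:**
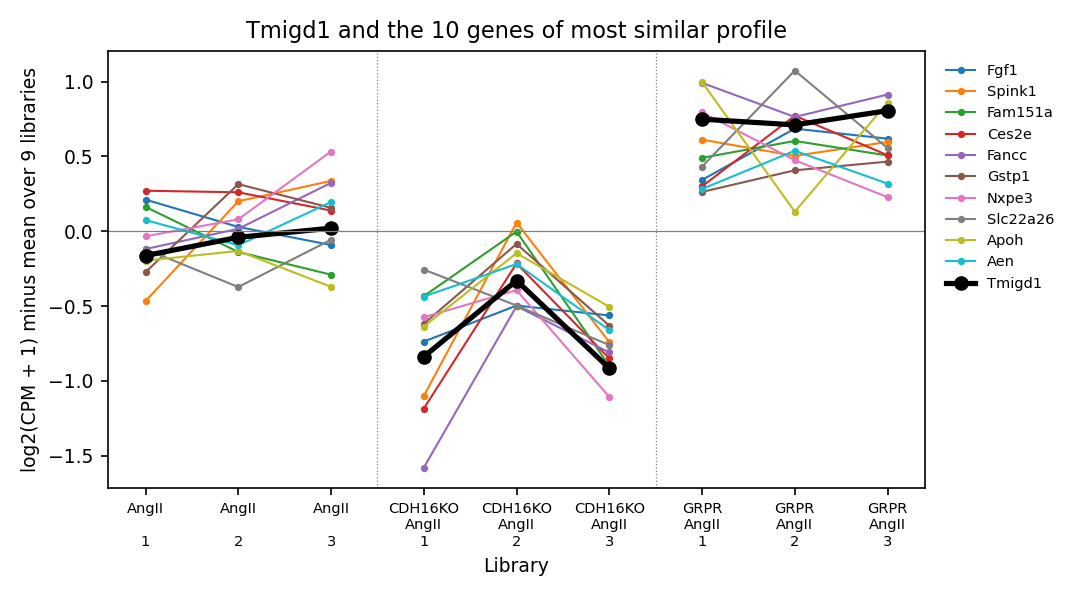
Log2(CPM + 1) minus the gene's mean over the 9 libraries (vertical) for Tmigd1 (black) and the 10 genes of most similar profile (colours), 1 position per library. Lines join libraries of the same group only and imply no order. Tmigd1 lies at -0.16 to 0.02 in AngII, -0.92 to -0.33 in CDH16KO-AngII and 0.71 to 0.81 in GRPR-AngII.

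The remaining genes of the 10 were expressed at lower levels. Ces2e, a carboxylesterase, stood at 8.60, 4.08 and 10.9 CPM in AngII, CDH16KO-AngII and GRPR-AngII, and Slc22a26, an organic anion transporter family member, at 8.03, 6.27 and 15.8 CPM. Fancc, a subunit of the Fanconi anaemia DNA repair complex, stood at 6.05, 2.57 and 11.3 CPM. Nxpe3 stood at 9.06, 4.48 and 11.4 CPM, Apoh (apolipoprotein H) at 5.03, 4.30 and 10.6 CPM, and Aen (apoptosis enhancing nuclease) at 19.9, 13.8 and 25.04 CPM. In 4 of the 10 (Fgf1, Ces2e, Fancc and Aen) the 3 groups stood apart in the order of Tmigd1, beside 0.128% of all tested genes. The 10 were picked for likeness to Tmigd1, so nothing is read from this count. One of the 10, Apoh, shares chromosome 11 with Tmigd1. None of the 10 was on any of the 11 lists. Of the 50 nearest genes, 1 was on a list: Slc3a1, the subunit rBAT of the cystine transporter of the brush border, at rank 33 with a difference of 0.372, singled out after its values were seen. It stood at 83.4 ± 14.2 FPKM in the AngII group, 59.0 ± 16.9 in CDH16KO-AngII and 93.2 ± 1.78 in the GRPR-AngII group (SD, n = 3), with the same order of means as Tmigd1. The nearest brush border gene was Espn, an actin bundler of microvilli, at rank 603, and the nearest immunoglobulin superfamily gene was Cadm1 at rank 697.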

How the data were processed

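Kidney RNA was extracted with an RNeasy kit and made into libraries with a SMARTER mRNA kit, per the labels' protocols. The submitters' processing notes name GRCm38 and mm10. The sources used here do not give the aligner, the counting program or the use of strand. The deposited table gives a count and an FPKM per gene and library, per the file headers. The deposited counts are whole numbers, and the sources used here do not give whether they are reads or rounded estimates. The deposited FPKM values were used as given for levels per length.

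Tmigd1 and the lists were chosen with earlier results of these data known. CPM values used TMM scaling, except those with the mitochondria-coded genes taken out of the totals. The 12507 genes whose FPKM was no lower than 1 in 3 or more libraries were tested with edgeR 4.0.16 (quasi-likelihood, column totals as library sizes, 9 libraries in 1 fit, no block), with a Benjamini-Hochberg threshold of 0.05. The SE of a log2 fold change was its size divided by the root of the F statistic. Profiles and like-level genes used a pseudocount of 1. The script was tested on simulated data. Alternatives were DESeq2 1.42.0, limma 3.58.1 on log2(FPKM + 1) or log2(FPKM + 0.1), other scalings and filters, a replicate block, and leaving out each library. Named genes were Tmigd1, its 10 nearest by profile, the 4 most abundant tested members of each list (not all are printed), list members called by edgeR, and 3 neighbours on each side by position and by mean FPKM. Some genes and a motif that this rule or the search covered are not reported here. Shared sequence was searched with BLAST 2.17.0 for Tmigd1 only, so reads shared with close copies remain possible for Gstp1, Ces2e and Slc22a26. Promoters are RefSeq's on GRCm38.p6, and 2 starts matched Tmigd1.

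Replicates of a group differed beyond counting noise: chi-square per gene between pairs of libraries was 74.2 to 366, so all 9 were kept as separate libraries.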

Additional observations from a re-analysis of the deposited data

How the results depend on the processing

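The log2 fold changes of Tmigd1 kept their direction under all 19 alternatives, at -0.83 to -0.51, 0.74 to 0.86 and 1.33 to 1.65 (CDH16KO-AngII against AngII, GRPR-AngII against AngII, GRPR-AngII against CDH16KO-AngII). Leaving out 1 library at a time gave -0.83 to -0.51, 0.77 to 0.86 and 1.33 to 1.65. With a replicate block they were -0.63, 0.82 and 1.45, and 0 list genes were called in each comparison, as without it. Libraries of different groups were also correlated after the group mean of each gene was subtracted from its log2 CPM. These deviations had correlations of -0.0962 to 0.239 between same-numbered libraries. Of these 9 pairs, 6 were above 0.1 (all those of numbers 2 and 3, none of number 1). By the same deviations, 5 of 9 libraries correlated best with their own number. The labels name no shared litter, batch or day, so the libraries were not treated as paired, and a shared source for numbers 2 and 3 was not tested. Over all genes the block gave 26, 0 and 13 calls, beside 21, 0 and 18. DESeq2 called 1, 2 and 2 list genes where edgeR called 0 (over all genes 210, 54 and 175 against 21, 0 and 18), and the cause was not tested. Leaving out 1 library gave 0 list calls throughout, and 0 to 42, 0 to 2 and 0 to 50 calls over all genes. The highest over the lowest Tmigd1 library was 3.33-fold, 3.16 to 3.33 without single libraries. The share of like-level genes with a larger range of group means was 0.0%, 0.5% by mean FPKM and 0.0% to 1.0% without single libraries. Relative to S2 and S3 markers, Tmigd1 gave -0.61 and 0.58 in place of -0.37 and 0.92. Without single libraries, the S1 and S2 values were -0.54 to -0.21, 0.76 to 1.09 and 1.25 to 1.34. Ranking by Pearson correlation shared 5 of the 10 nearest genes, and leaving out 1 library shared 4 to 9. Of 627 list medians recomputed, 24 moved by more than the spread between replicates, 2 of them under limma and the rest without 1 of the libraries. With 3 libraries per group, the precision is set by the spread between libraries and not by depth.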
